A study of Mus musculus with 8 samples.

Results

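The MAP kinase phosphatases examined here are the products of 10 mouse genes, Dusp1, Dusp2, Dusp4, Dusp5, Dusp6, Dusp7, Dusp8, Dusp9, Dusp10 and Dusp16. They were taken by symbol from the 45706 Ensembl genes counted in crypts of the small intestine (SI) and the colon (COL), and all 10 were found in both count tables. They were split by textbook location and substrate into 4 nuclear enzymes (Dusp1, Dusp2, Dusp4, Dusp5), 3 cytoplasmic ERK-selective enzymes (Dusp6, Dusp7, Dusp9) and 3 JNK/p38-selective enzymes (Dusp8, Dusp10, Dusp16). RNA-Seq had been performed on crypts, the epithelial pockets that hold the stem and progenitor cells of the gut, released with EDTA from 4 wild-type C57BL/6N mice (2 female, 2 male), for which the labels give no treatment and no engineered allele. Per the study's methods for isolating crypts, the proximal part of the small intestine was taken, and its villi were scraped off first. The colon was kept longer and in more concentrated EDTA than the small intestine, so that tissue and isolation cannot be told apart. The ages of the mice are not given in the sources used here. Each mouse gave 1 SI and 1 COL library, numbered here by replicate, with libraries 1 and 4 from females. Library 4 of each tissue came from the animal labelled donor mouse 5.

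MAP kinases (ERK, JNK and p38) are switched on by phosphorylation of a threonine and a tyrosine in their activation loop, and the dual-specificity phosphatases of the DUSP family switch them off by removing both phosphates. Many of these phosphatases are themselves induced by the kinases they act on, so that their transcripts form a negative feedback loop whose members differ in where in the cell they act and which kinase they prefer. In the gut epithelium, ERK signalling downstream of the EGF receptor supports the proliferation of crypt cells.

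Total counts were 21156329 to 30368676 in SI and 15969428 to 32908060 in COL libraries. The share of mitochondrially encoded transcripts was low (4.83% to 7.35%) in libraries 1 and 4 of SI and 3 and 4 of COL. It was high (22.7% to 50.8%) in the other libraries, namely SI2 and SI3 with COL1 and COL2. The epithelial gene Epcam was abundant in both tissues, at 653 ± 177 (SI) and 466 ± 64.7 (COL) CPM (SD, n = 4 mice). The lysozyme gene Lyz1 and 4 other Paneth cell markers together had 557 to 3917 CPM in SI and 6.29 to 20.1 CPM in COL libraries. CPM is the read count scaled to a common library size with TMM factors, and in bulk RNA of this kind fewer cells of a type and less RNA per cell cannot be told apart.

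The quasi-likelihood test of edgeR was applied to SI against COL for all 14491 genes that passed a filter on low counts, and p-values were adjusted by Benjamini-Hochberg over all of them with 0.05 as the threshold. A positive log2 fold change means more in SI. Of the 10 phosphatase genes, 8 passed the filter, while Dusp2 and Dusp9 did not. Dusp5, Dusp6 and Dusp16 were higher in SI and Dusp7 was higher in COL, so that 4 of the 8 passed the threshold, against 28.4% of all genes tested. The share of all genes called was 15.5% toward SI and 12.9% toward COL. The median log2 fold change was 0.81 over the 8 genes and -0.09 over all genes tested. These 4 genes were also those whose CPM values, scaled with TMM factors, did not overlap between the tissues, which held for 33.5% of all genes tested. With scaling by library size alone the median of all genes moved to -0.82, and the genes called split into 1115 higher in SI and 4788 higher in COL, against 2253 and 1863 with TMM. Under that scaling Dusp16 was no longer past the threshold (log2 fold change 0.71, adjusted p = 0.0791 by edgeR) and Dusp1 was, toward COL (-1.82, adjusted p = 0.0321). Against the median of all genes so scaled, Dusp16 lay at 1.54 and Dusp1 at -1.0.

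**Figure D1:**
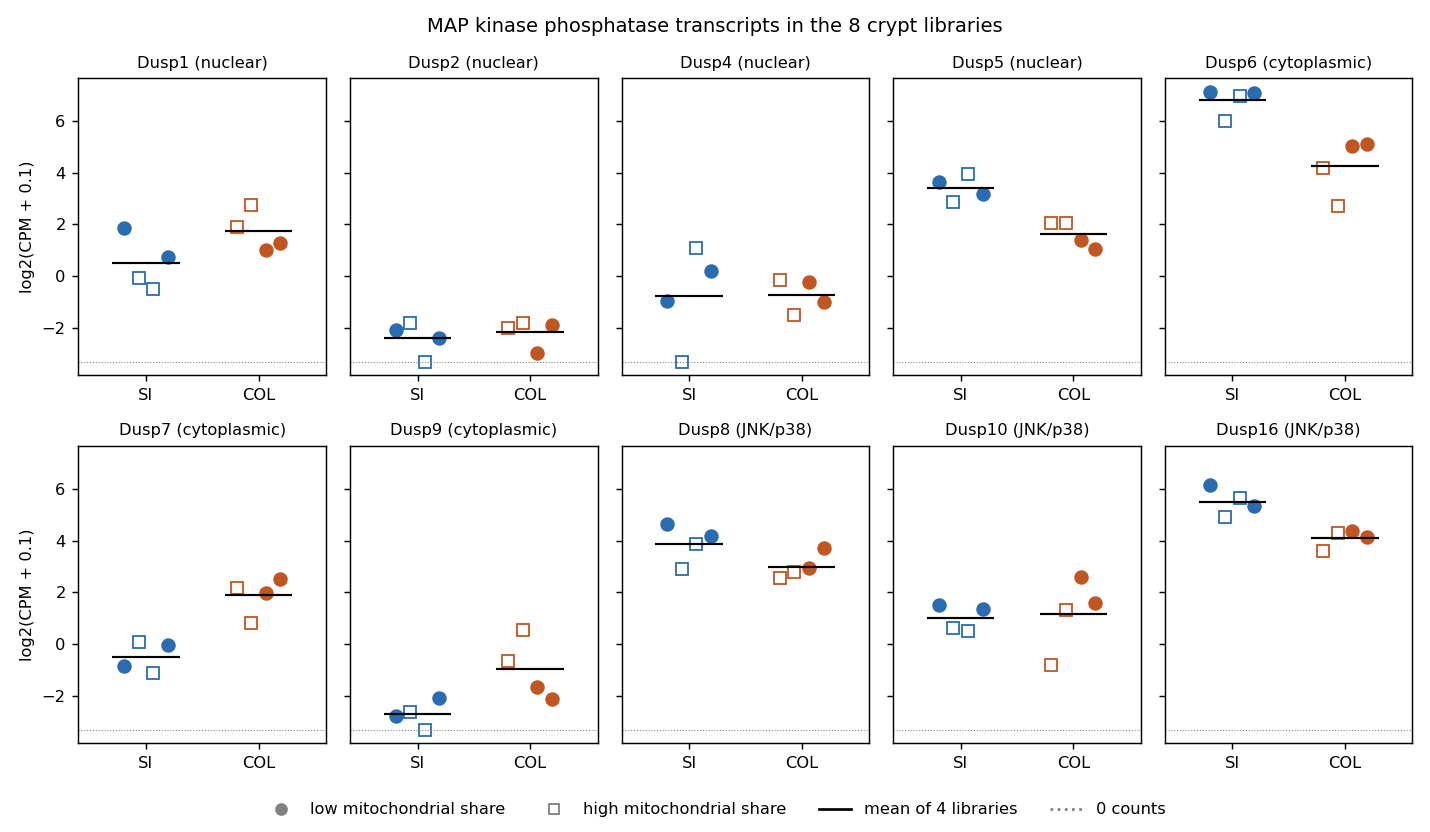
Expression of the 10 phosphatase genes as log2(CPM + 0.1) in each of the 4 SI and 4 COL libraries, with the mean of the 4 as a line and libraries of high mitochondrial share as open squares. Dusp5, Dusp6 and Dusp16 lie higher in every SI library than in any COL library and Dusp7 lower, while Dusp2 lies at or below 0.186 CPM in every library and Dusp9 reaches 1.37 CPM in COL2.

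The sequences before the start sites of the 4 genes that passed the threshold are shown, because Dusp5, Dusp6 and Dusp16 were high in the same tissue and Dusp7 in the other. They are the 210 bases from 250 to 41 bases before the RefSeq start (GRCm38.p6), written 5′ to 3′ on the strand of the gene, with capitals for matches to the CRE core TGACG, the ETS core CGGAAG, the AP-1 site TGANTCA, the TATA box TATAAA and the TCF core CTTTGA on either strand.
Dusp6, chr10:99262981-99263190, plus strand: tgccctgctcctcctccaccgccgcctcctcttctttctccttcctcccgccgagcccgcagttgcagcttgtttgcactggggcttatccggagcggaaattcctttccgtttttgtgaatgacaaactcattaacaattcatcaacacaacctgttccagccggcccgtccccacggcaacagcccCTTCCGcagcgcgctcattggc
Dusp7, chr9:106368382-106368591, plus strand: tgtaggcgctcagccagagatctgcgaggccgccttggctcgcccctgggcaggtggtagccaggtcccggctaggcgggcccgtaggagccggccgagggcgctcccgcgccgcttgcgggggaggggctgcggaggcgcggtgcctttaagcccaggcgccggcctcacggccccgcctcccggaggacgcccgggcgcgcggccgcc
Dusp5, chr19:53528895-53529104, plus strand: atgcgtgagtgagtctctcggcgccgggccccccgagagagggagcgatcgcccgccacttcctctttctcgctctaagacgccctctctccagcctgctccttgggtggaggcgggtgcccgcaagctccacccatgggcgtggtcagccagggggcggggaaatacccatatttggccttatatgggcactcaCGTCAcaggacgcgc
Dusp16, chr6:134792669-134792878, minus strand: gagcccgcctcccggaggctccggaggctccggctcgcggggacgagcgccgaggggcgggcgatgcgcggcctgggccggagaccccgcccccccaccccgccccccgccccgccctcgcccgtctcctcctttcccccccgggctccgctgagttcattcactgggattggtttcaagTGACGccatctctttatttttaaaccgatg

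The Dusp6 window held 1 ETS core, 62 bases before the start, the Dusp5 and Dusp16 windows held 1 CRE core each, 55 and 70 bases before it, and the Dusp7 window held none of these motifs. Of all 32851 promoter windows of this length, 10.1% held the ETS core and 14.0% the CRE core, while 5.84% held the AP-1 site, 9.56% the TATA box and 12.2% the TCF core. The GC box GGGCGG, which is not capitalized, occurred 5 times in the Dusp16 window, with 1 base shared by neighbouring matches, and 1 time in that of Dusp5. It was present in 26.7% of all windows. Of the genes that did not pass the threshold, Dusp8 had 4 and Dusp1 had 3 matches to the CRE core, where the palindrome counts on each strand, and Dusp2 and Dusp10 had 0. The GC content was 78.6% for Dusp7, 71.4% for Dusp16, 65.2% for Dusp5 and 58.1% for Dusp6, against a median of 51.9% over all windows. Windows were found for 8 of the 10 genes (not for Dusp4 and Dusp9), and a match is a stretch of letters and not evidence of binding.

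Among the cytoplasmic ERK-selective enzymes, the transcripts of Dusp6 and Dusp7 went in opposite directions. Dusp6 encodes a phosphatase that acts on ERK almost exclusively, and its transcription is raised by ERK signalling. Dusp6 (ENSMUSG00000019960, chr10:99263231-99267489, GRCm38, plus strand) was at 140 CPM in SI1, 63.4 CPM in SI2, 127 CPM in SI3 and 136 CPM in SI4. In COL1 to COL4 it was at 17.9, 6.46, 32.3 and 34.2 CPM. Every SI library exceeded every COL library, with SI2 standing below the other SI libraries and COL2 below the other COL libraries. Expression was 5.13-fold higher in SI, a log2 fold change of 2.36 (standard error 0.49, 95% interval 1.29 to 3.42, Benjamini-Hochberg adjusted p = 0.00374 by edgeR). The difference within a mouse ranged from 1.97 to 3.28 on the log2 scale.

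Dusp7, which encodes a close relative of Dusp6 with the same preference for ERK, showed the reverse pattern. Dusp7 (ENSMUSG00000053716, chr9:106368632-106375724, plus strand) was at 0.453, 0.967, 0.355 and 0.870 CPM in SI1 to SI4, from 7 to 19 counts a library. In COL1 to COL4 it was at 4.37, 1.68, 3.88 and 5.67 CPM, from 27 to 271 counts. The ranges did not overlap, and COL2 lay closest to SI. Expression was 5.91-fold higher in COL, a log2 fold change of -2.56 (standard error 0.57, 95% interval -3.83 to -1.32, adjusted p = 0.00578 from edgeR's test), and it was higher in COL in all 4 mice.

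Dusp9, an X-linked gene best known from placenta, was under the filter. Dusp9 (ENSMUSG00000031383, chrX:73639419-73643514, plus strand) had 1, 1, 0 and 3 counts in SI1 to SI4 and 18, 22, 8 and 6 counts in COL1 to COL4. The 0 in SI3 allows up to 0.152 CPM for counting error alone, and the CPM ranges of SI (up to 0.137) and COL (from 0.126) overlapped. Without the filter, where 13.7% of 33110 genes passed the threshold, edgeR gave a log2 fold change of -3.05 with an adjusted p of 0.168.

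The cytoplasmic class was therefore nearly all Dusp6 in SI and mixed in COL. Per kilobase of exon, which allows levels to be compared between genes, Dusp6 held 99.3% ± 0.57 of the class in SI and 80.5% ± 9.77 in COL (SD, n = 4). Dusp7 held 0.64% ± 0.53 of the class in SI and 14.4% ± 3.54 in COL. The ratio of Dusp6 to Dusp7 per kilobase was 70.3 to 383 in SI and 4.13 to 8.92 in COL libraries. These shares and ratios are descriptions and were not tested.

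Among the nuclear enzymes, Dusp5 was higher in SI, and Dusp1 and Dusp4 did not pass the threshold. Dusp5, which encodes a nuclear phosphatase specific for ERK and is itself induced by growth factors, was the most abundant of the 4 in SI. Dusp5 (ENSMUSG00000034765, chr19:53529109-53542431, plus strand) was at 12.2, 7.13, 15.4 and 8.93 CPM in SI1 to SI4 and at 4.02, 4.04, 2.57 and 1.99 CPM in COL1 to COL4. The groups did not overlap. Expression was 3.47-fold higher in SI, a log2 fold change of 1.80 (standard error 0.38, 95% interval 0.96 to 2.64, adjusted p = 0.00459 from edgeR's test), and higher in all 4 mice. Of its exons, 547 bases overlap an annotated antisense transcript, and 20.5% of the 50-base stretches of its transcripts occur there too, so that reads of Dusp5 and of that gene cannot be told apart where counting ignored the strand.

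Dusp1 is the classical immediate early member, induced within minutes by growth factors and by stress, and acts on p38 and JNK as well as on ERK. Dusp1 (ENSMUSG00000024190, chr17:26505590-26562128, minus strand) was at 3.58, 0.846, 0.608 and 1.56 CPM in SI1 to SI4 and at 3.67, 6.59, 1.90 and 2.35 CPM in COL1 to COL4. The tissues overlapped, since SI1 lay above COL3 and COL4. The log2 fold change of -1.12 (standard error 0.64, 95% interval -2.54 to 0.29) was not past the threshold (adjusted p = 0.221 by edgeR). Within each of the 4 mice Dusp1 was lower in SI, with differences of -2.86 to -0.03 on the log2 scale. The size of this difference moved with the mitochondrial share, which in SI cannot be told apart from sex, since both SI libraries of high share came from males. Among libraries of high share (SI2, SI3, COL1, COL2) the difference in mean log2 CPM was -2.66, and among those of low share it was 0.16. Fitted on the 4 libraries of high share alone, where 14.8% of all genes tested passed the threshold, Dusp1 and Dusp6 passed it (Dusp1 at -2.87, adjusted p = 0.0377 by edgeR), while Dusp5 (adjusted p = 0.138), Dusp7 (0.165) and Dusp16 (0.087) did not. On the 4 libraries of low share, where 37% of all genes passed, Dusp1 was at 0.26 (adjusted p = 0.735 by edgeR) and Dusp5, Dusp6, Dusp7 and Dusp16 were past the threshold. With the mitochondrial level as a covariate over all 8 libraries, Dusp1 was at -1.20 (adjusted p = 0.214 by edgeR).

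Dusp4 and Dusp2 were close to the limit of detection. Dusp4 (ENSMUSG00000031530, chr8:34807297-34819894, plus strand), which encodes an inducible phosphatase of ERK and JNK, had 9, 0, 40 and 23 counts in SI1 to SI4 and 27, 4, 28 and 19 counts in COL1 to COL4. The 0 in SI2 allows up to 0.181 CPM. Its log2 fold change of 0.66 had a standard error of 0.98 and a 95% interval of -1.49 to 2.82 (adjusted p = 0.658 by edgeR), and its sign turned with scaling by library size (-0.11). Dusp2 (ENSMUSG00000027368, chr2:127336159-127338376, plus strand), best known from activated lymphocytes, had 0 to 3 counts in SI and 1 to 8 counts in COL libraries and was under the filter. At this depth a difference in Dusp2 was not detectable (log2 fold change -0.41, adjusted p = 0.898 by edgeR without the filter). Leukocyte markers differed at the same time, with 5 of the 7 tested higher in SI, against 15.5% of all genes. Their summed level over 12 markers was 119 to 397 CPM in SI and 15.8 to 67.2 CPM in COL libraries.

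The make-up of the nuclear class differed between the tissues. Per kilobase, Dusp5 held 83.9% ± 5.02 of the class in SI and 49.1% ± 5.47 in COL (n = 4, SD), and the ranges over libraries did not overlap. Dusp1 held 9.56% ± 6.12 in SI and 39.7% ± 9.38 in COL, again without overlap, from 2.58% to 17.3% in SI and from 30.2% to 52.3% in COL.

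Among the JNK/p38-selective enzymes, Dusp16 was higher in SI. Dusp16 encodes a phosphatase that shuttles between nucleus and cytoplasm and prefers JNK. Dusp16 (ENSMUSG00000030203, chr6:134715468-134792625, minus strand) was at 70.3, 30.0, 50.5 and 40.7 CPM in SI1 to SI4 and at 11.9, 19.5, 20.8 and 17.8 CPM in COL1 to COL4. All SI libraries were above all COL libraries. Expression was 2.74-fold higher in SI, a log2 fold change of 1.45 (standard error 0.31, 95% interval 0.77 to 2.14, adjusted p = 0.00474 from edgeR's test). Means of log2 CPM differed by 1.35 in libraries of high and by 1.47 in those of low mitochondrial share.

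Dusp8, described mainly from brain and heart, leaned the same way without passing the threshold. Dusp8 (ENSMUSG00000037887, chr7:142079490-142095843, minus strand) was at 24.6, 7.31, 14.6 and 17.8 CPM in SI1 to SI4 and at 5.75, 6.84, 7.54 and 13.0 CPM in COL1 to COL4. SI2 lay within the COL range, and COL3 and COL4 lay within the SI range. The log2 fold change of 0.96 (standard error 0.40, 95% interval 0.08 to 1.84) had an adjusted p of 0.0977 by edgeR and was positive in all 4 mice. It passed the threshold when SI2 was left out (1.21, adjusted p = 0.0292 by edgeR) or COL4 was left out (1.27, adjusted p = 0.0493).

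Dusp10, whose product acts on p38 and JNK, had no direction common to the mice. Dusp10 (ENSMUSG00000039384, chr1:184013302-184075636, plus strand) was at 2.72, 1.45, 1.32 and 2.47 CPM in SI1 to SI4 and at 0.469, 2.36, 5.86 and 2.91 CPM in COL1 to COL4. The SI libraries lay inside the COL range, which COL1 and COL3 stretched in opposite directions. The log2 fold change was -0.54 (standard error 0.66, 95% interval -1.99 to 0.90, adjusted p = 0.58 by edgeR), and it was 0.067 without COL3. Within the class, Dusp16 held 61.4% ± 5.66 per kilobase in SI and 47.2% ± 7.44 in COL, Dusp8 31.9% ± 5.11 and 35.4% ± 9.37, and Dusp10 6.73% ± 1.91 and 17.4% ± 10.7 (SD, n = 4).

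**Figure D2:**
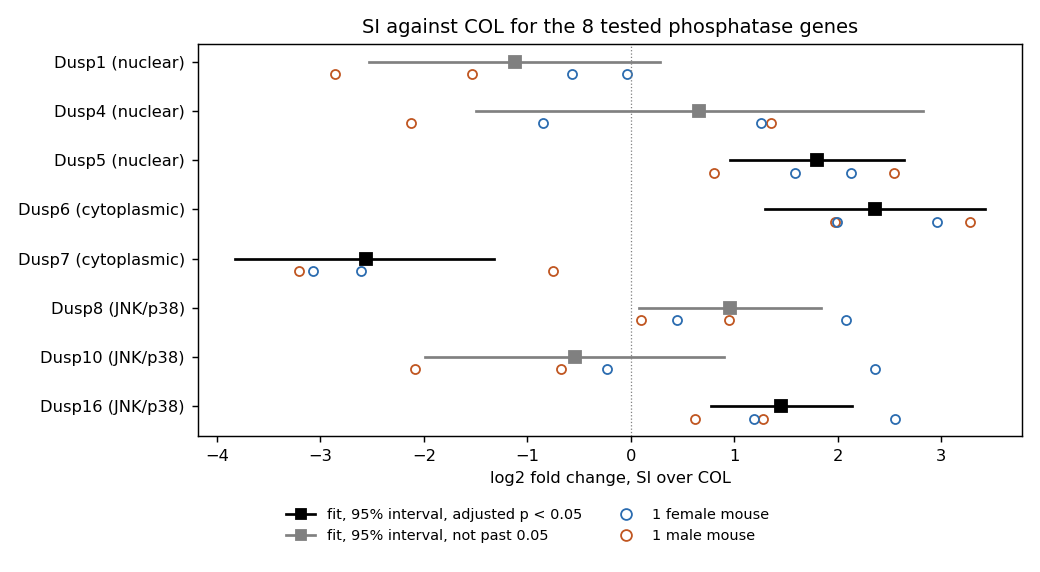
Log2 fold change of SI over COL for the 8 phosphatase genes tested, with squares and lines for the edgeR estimate and its 95% interval and open circles for the difference in log2 CPM within each of the 4 mice. The estimates run from -2.56 for Dusp7 to 2.36 for Dusp6, and the circles of Dusp1, Dusp5, Dusp6, Dusp7, Dusp8 and Dusp16 lie on 1 side of 0 in all 4 mice.

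Set in order of their level per kilobase, Dusp6 was first and Dusp16 next in both tissues. In SI the order was Dusp6 (37.2 ± 11.5 CPM per kilobase), Dusp16 (6.14 ± 2.20), Dusp5 (4.41 ± 1.47), Dusp8 (3.30 ± 1.48), Dusp10 (0.654 ± 0.233), Dusp1 (0.498 ± 0.407), Dusp4 (0.318 ± 0.323), Dusp7 (0.197 ± 0.090), Dusp2 (0.051 ± 0.039) and Dusp9 (0.022 ± 0.021, SD, n = 4). Ranges of neighbours in this order did not overlap between Dusp6 and Dusp16, between Dusp8 and Dusp10 and between Dusp7 and Dusp2, and they overlapped between all other neighbours. In COL the order was Dusp6 (7.25 ± 4.17), Dusp16 (2.24 ± 0.50), Dusp8 (1.70 ± 0.66), Dusp5 (1.28 ± 0.42), Dusp7 (1.16 ± 0.50), Dusp1 (1.09 ± 0.64), Dusp10 (0.953 ± 0.734), Dusp9 (0.205 ± 0.208), Dusp4 (0.200 ± 0.097) and Dusp2 (0.066 ± 0.036), and every pair of neighbours overlapped. Dusp7 thus stood at rank 8 in SI and rank 5 in COL.

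The 10 transcripts together reached 52.8 ± 16 CPM per kilobase in SI, against 16.1 ± 4.44 in COL (n = 4, SD), without overlap between libraries (29.6 to 66.0 in SI and 11.6 to 20.3 in COL). This sum rests on the TMM factors, 0.73 to 0.80 in SI and 1.01 to 1.45 in COL, and was not computed with scaling by library size alone. The cytoplasmic class took 67.9%, 69.4%, 70.5% and 75.5% of this sum in SI1 to SI4 and 54.7%, 26.5%, 59.0% and 62.3% in COL1 to COL4. Its share averaged 70.8% ± 3.33 over SI and 50.6% ± 16.4 over COL libraries, and all SI libraries were above all COL libraries. The JNK/p38 class took 19.1% ± 2.75 in SI and 30.7% ± 7.74 in COL, with COL1 (21.8%) inside the SI range of 16.7% to 22.7%. The nuclear class took 10.1% ± 1.97 in SI and 18.7% ± 11.7 in COL. Its COL mean rested on COL1 (23.5%) and COL2 (32.9%), the COL libraries of high mitochondrial share, while COL3 (9.70%) and COL4 (8.58%) lay in the SI range of 7.77% to 12.4%.

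Dusp6 was the largest part of the cytoplasmic class. It took 70.3% ± 3.32 of the 10-gene sum in SI and 41.9% ± 16.7 in COL, while Dusp7 took 0.45% ± 0.37 in SI and 7.11% ± 2.48 in COL. COL2 carried much of the difference. It had the highest mitochondrial share (50.8%) and the lowest total counts (15969428) of the 8 libraries. Without COL2 the COL shares were 58.7% ± 3.81 cytoplasmic, 27.4% ± 5.01 JNK/p38 and 13.9% ± 8.32 nuclear (SD, n = 3). The cytoplasmic difference then fell from 20.2 to 12.2 percentage points. With the most abundant gene of each class left out (Dusp5, Dusp6 and Dusp16), the cytoplasmic share became 5.41% ± 4.51 in SI and 25.8% ± 7.01 in COL (n = 4, SD), the opposite order. Since the summed level of all 3 classes, scaled with TMM factors, was higher in SI on average, a lower share in SI does not stand for a lower level. For the JNK/p38 class the sum was 10.1 ± 3.75 CPM per kilobase in SI and 4.90 ± 1.5 in COL, and for the nuclear class it was 5.28 ± 1.75 and 2.64 ± 0.99. The class shares are sums over genes chosen with their values known and were given no test.

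**Figure D3:**
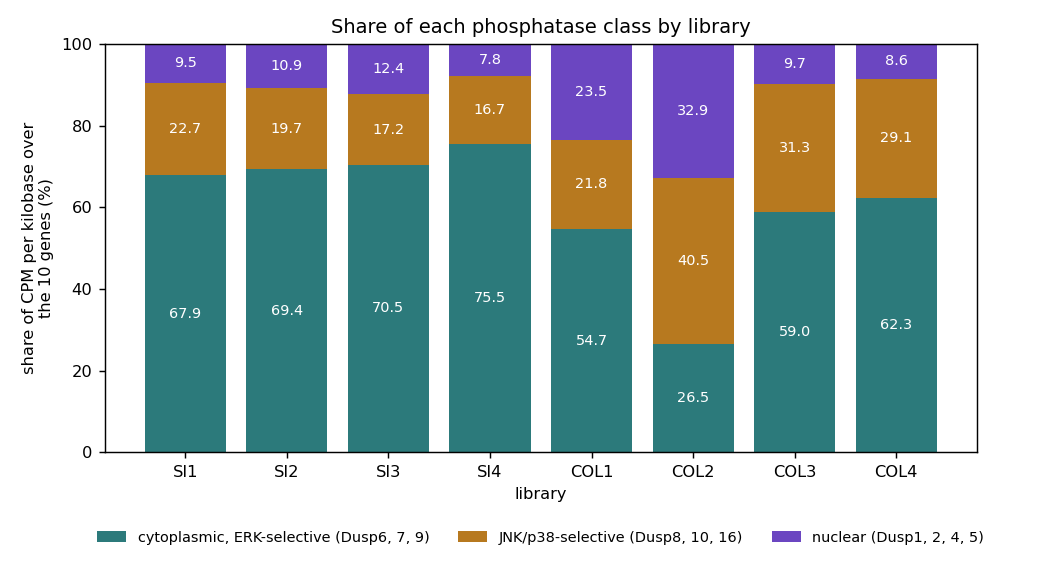
Share of each class in the summed CPM per kilobase of the 10 phosphatase genes, as stacked bars in percent for each SI and COL library. The cytoplasmic class runs from 67.9% to 75.5% in SI and from 26.5% to 62.3% in COL, and COL1 and COL2 have nuclear shares of 23.5% and 32.9%.

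The kinases that these phosphatases act on were described with a list of 13 MAP kinase genes, of which 10 were tested. Mapk4, Mapk6, Mapk8 and Mapk13 were among those higher in SI, and Mapk12 was higher in COL. Over all genes tested, 15.5% were higher in SI and 12.9% in COL. Mapk3, which encodes ERK1, was at 191 CPM in SI against 171 in COL (log2 fold change 0.16, adjusted p = 0.697 by edgeR). Mapk8, the gene of JNK1, was at 29.7 ± 10.4 CPM in SI against 10.7 ± 2.64 in COL (1.47, adjusted p = 0.00635). Mapk14, the gene of p38 alpha, was at 32.4 and 30.2 CPM (0.10, adjusted p = 0.826). Mapk3 and Mapk14, and Map2k1 and Map2k2 among their activators, are named for contrast and were chosen after their values were seen.

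Of the 7 MAP kinase kinase genes, all tested, 2 were higher in SI and 2 in COL, against 15.5% and 12.9% of all genes. These 4 all encode activators of JNK or p38. Map2k4 was at 40.4 ± 7.34 CPM in SI against 17.0 ± 2.25 in COL (1.25, adjusted p = 0.00242 by edgeR), and Map2k3 had a log2 fold change of 0.91 (adjusted p = 0.0154). In the other direction, Map2k7 was at 5.81 ± 1.25 CPM in SI against 14.2 ± 5.36 in COL (-1.28, adjusted p = 0.0154), and Map2k6 had a log2 fold change of -1.69 (adjusted p = 0.0223). The ERK activators Map2k1 (-0.12, adjusted p = 0.825) and Map2k2 (0.76, adjusted p = 0.087) were not past the threshold.

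Among 8 other phosphatases that act on MAP kinases, all tested, 2 were higher in SI and 0 in COL by edgeR, against 15.5% and 12.9% of all genes. DESeq2 and limma-voom also called 0 toward COL. Only 1 of the 8 (Ppp2cb) lay toward COL at an unadjusted p under 0.05 by edgeR, by DESeq2 and by limma-voom. Ptprr, which encodes a tyrosine phosphatase of ERK, was at 112, 72.0, 72.9 and 204 CPM in SI1 to SI4 and at 13.6, 52.6, 56.8 and 29.0 CPM in COL1 to COL4, without overlap (log2 fold change 1.6, adjusted p = 0.0282 by edgeR). Ppm1a, which encodes a serine/threonine phosphatase that can act on p38, was at 45.8 ± 8.98 CPM in SI against 23.3 ± 4.22 in COL (0.97, adjusted p = 0.0132).

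The atypical dual-specificity phosphatases, which lack the domain by which MAP kinase phosphatases dock on their substrates, were called in both directions. Of 16 genes of this group and its inactive relatives, 11 were tested, 3 were higher in COL and 1 was higher in SI, against 12.9% and 15.5% of all genes, and 7 passed in neither direction. Dusp3, which encodes a small phosphatase reported to act on ERK and JNK, was at 5.71, 4.35, 3.45 and 6.41 CPM in SI1 to SI4 and at 30.0, 27.8, 48.1 and 33.2 CPM in COL1 to COL4, well apart (log2 fold change -2.80, adjusted p = 6.9e-05 by edgeR). Dusp18 was at 3.49 ± 1.04 CPM in SI against 15 ± 3.89 in COL (-2.11, adjusted p = 0.000791). Dusp22 was at 0.136, 0, 0 and 0 CPM in SI1 to SI4 and at 1.41, 2.67, 2.51 and 2.41 CPM in COL1 to COL4. The gene higher in SI was Styxl1, whose product is a catalytically inactive relative (3.23 ± 1.44 against 0.123 ± 0.120 CPM, adjusted p = 0.00201).

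In a list of transcripts commonly read as output of ERK signalling, more genes were called toward COL than toward SI. The list left out Dusp5, Dusp6 and Fos, also induced by ERK signalling or growth factors, which were higher in SI. It also left out Dusp1, which passed in neither direction, so the lean holds for the list alone. Of 18 target and feedback genes, all tested, 5 were higher in COL and 1 in SI by edgeR, against 12.9% and 15.5% of all genes. DESeq2 called 6 toward COL and 1 toward SI, and limma-voom 8 and 1. By edgeR 12 passed in neither direction, and the median log2 fold change was -1.16. Etv5, an ETS family transcription factor gene, was at 0.589, 1.75, 0.456 and 0.778 CPM in SI1 to SI4 and at 46.4, 18.8, 26.5 and 27.7 CPM in COL1 to COL4 (-5.08, adjusted p = 3.3e-05 by edgeR). Its relative Etv4 was at 0 to 0.608 CPM in SI against 2.30 to 9.88 in COL (-4.79, adjusted p = 0.00315). The other genes higher in COL by edgeR were Epha4, Fosl1 and Spred1, with log2 fold changes of -2.97, -3.90 and -1.44. The receptor gene Epha2 was higher in SI, at 42.7 ± 10.9 CPM against 7.18 ± 2.63 CPM (2.57, adjusted p = 0.000156). Some of these genes respond to other pathways as well, and ERK activity itself was not measured in these libraries. The study measured ERK phosphorylation by western blot on separate lysates and reported more of it in SI than in COL.

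Of 23 immediate early and stress genes, the group to which Dusp1 belongs by its regulation, 21 were tested. Of these, 3 were higher in SI and 2 in COL, against 15.5% and 12.9% of all genes. Fos, which is also induced by ERK signalling, was at 247 ± 104 CPM in SI against 59.4 ± 21.1 in COL (2.05, adjusted p = 0.00242 by edgeR) and Zfp36 at 333 ± 119 and 50.2 ± 25.3 CPM (2.73, adjusted p = 0.000902). Dnajb1, a heat shock gene, was higher in SI with a log2 fold change of 1.09. Nr4a1 was at 0.060 to 0.778 CPM in SI against 2.86 to 13.2 in COL (-4.48, adjusted p = 0.000591), and Klf2 was the other gene higher in COL, with 0.045, 0, 0 and 0 CPM in SI1 to SI4. Neither direction was shared by the group, whose median log2 fold change was -0.06.

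**Figure D4:**
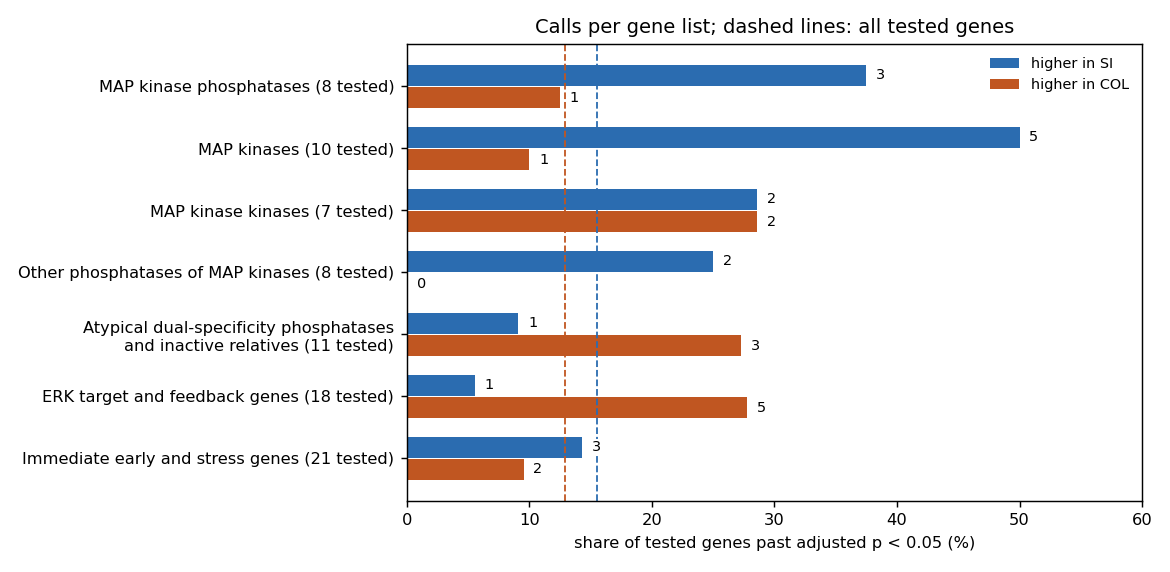
Share of tested genes past an adjusted p of 0.05 in each list, in percent, higher in SI (upper bars) or in COL (lower bars), with the number of genes at each bar and the shares over all genes tested (15.5% and 12.9%) as dashed lines. The phosphatases have 3 genes toward SI and 1 toward COL, and the ERK target and feedback genes 1 and 5.

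Some of the other cell type markers differed between the tissues and some did not, where 15.5% of all genes tested were higher in SI and 12.9% in COL. Of 8 epithelium markers, 2 were higher in SI, Vil1 (3552 ± 820 CPM in SI against 373 ± 106 in COL) and Krt20 (7752 ± 3407 against 928 ± 584). Krt18 and Cdx1 were higher in COL. Of 10 enterocyte markers, 6 were higher in SI and 3 in COL, with summed levels of 28226 to 54524 CPM in SI and 4536 to 31782 CPM in COL libraries, and all 5 Paneth cell markers were higher in SI. Of 5 proliferation markers 0 passed the threshold by edgeR or limma-voom and 1 (Ccnb1, toward COL) by DESeq2, and the same gene had an unadjusted p under 0.05 by edgeR. SI1 had the lowest summed proliferation markers (90.0 CPM, where the other SI libraries had 240 to 421 CPM), the highest enterocyte markers, and the highest Dusp1, Dusp6, Dusp8, Dusp10 and Dusp16 of the SI libraries. The part of cell composition in the phosphatase differences was not tested. Stem cell markers had 1 of 5 higher in SI (Olfm4, 151 ± 103 CPM in SI against 0.93 ± 1.71 in COL). The median log2 fold change of the 5 was -0.13. Toward COL, 2 of them had an unadjusted p under 0.05 by limma-voom and 0 by edgeR or DESeq2. Goblet cell markers had 2 of 5 higher in COL and enteroendocrine markers 1 of 5 in each direction. Tuft cell markers had 0 of 3 past the threshold by edgeR, and 0 at an unadjusted p under 0.05 by edgeR, DESeq2 or limma-voom. Mesenchymal and endothelial markers were low throughout, at 1.14 to 9.06 CPM in SI against 2.88 to 12.7 in COL for the sum of 8 genes.

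The tissue difference was also compared between female and male mice with an interaction term in edgeR. It passed the threshold for 0 of the 14491 genes and for 0 of the 8 phosphatase genes. At an unadjusted p under 0.05 it was met by 761 genes (5.25%) and again by 0 of the 8. For Dusp1 the difference in males minus that in females was -2.31 on the log2 scale (adjusted p = 0.909 by edgeR), and with 2 libraries per tissue and sex such differences could be missed.

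The genes whose log2 CPM followed Dusp6 most closely over the 8 libraries were Prdx1, Gpx4, Id2, Dynlt1b and Txndc17, with Pearson's r from 0.991 to 0.995. For Dusp16 they were Rab33b, Pros1, Ndfip2, Ccdc90b and Med23 (0.979 to 0.991), and for Dusp1 they were Nat14, Gm43571, Capn10, Zfp949 and Gm35066 (0.957 to 0.971). Those of Dusp6 and Dusp16 were all higher in SI by edgeR's test, and none of those of Dusp1 passed the threshold. These are the 5 highest of all genes tested in 8 libraries that share the tissue difference, and they are given as a description.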

How the data were processed

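RNA-Seq of 4 SI and 4 COL crypt libraries was analysed. Per the labels and the study's methods, the authors used Trimmomatic 0.36 for trimming and STAR 2.5.2b for alignment to mm10 and for counting (the submitters' processing notes also list mm9). The authors deposited raw counts as whole numbers for 45706 Ensembl genes. The annotation release and the use of strand are not given in the sources used here. Symbols, coordinates and exon lengths came from GENCODE vM21 (GRCm38), which holds 45143 of these genes, and promoters from RefSeq (GRCm38.p6). The phosphatase genes, their classes and all gene lists were chosen with earlier results of these data known.

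Genes were kept by filterByExpr, which asks for about 10 counts in at least 4 libraries. The tissues were compared by edgeR 4.0.16 (glmQLFit, glmQLFTest, TMM factors of 0.73 to 1.45) in R 4.3.3, without a donor term because the methods name none. Standard errors and 95% intervals were derived from the F statistic and the coefficient without shrinkage. Log2 CPM used a prior count of 2. Levels per kilobase used the union of exons. Alternatives were DESeq2 1.42.0, limma 3.58.1 with voom (the methods name limma without settings), the donor mouse as a block, other scaling and filters, and each library left out. Fits within the libraries of high or low mitochondrial share and with that level as a covariate were added after the data had been examined.

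SI and COL libraries with the same number came from the same mouse per the labels. The correlation of their deviations from the tissue means was -0.24, 0.39, -0.079 and 0.33. No libraries within a tissue agreed within sampling noise (chi-square per gene of 86.5 or more). Intervals of zero counts cover counting error only, at 3 counts a library. The named genes are the 10 phosphatases, list members past the threshold, and the 5 genes most like Dusp1, Dusp6 and Dusp16. Mapk3, Mapk14, Map2k1, Map2k2, Ppp2cb and Ccnb1 fall outside this rule and were named after their values were seen. Epcam, given as a marker of epithelium, falls outside it too. A result on 1 list gene is not reported here. The scripts were tested on simulated data.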

Additional observations from a re-analysis of the deposited data

Results flagged for a closer look

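Of the 26 sets of 4 libraries examined (CPM of each phosphatase gene and share of each class, in SI and in COL), 1 held a value far from the other 3. Dusp6 in SI was at 63.4 CPM in SI2 against 127 to 140 CPM in SI1, SI3 and SI4, and the gap to the nearest library was 0.832 of the whole range, above Dixon's 95% critical value for 4 samples. Chance alone flags about 1 in 20 such sets. SI2 is 1 of the 4 libraries of high mitochondrial share (28.3%), and SI3, at 22.7%, was not low in Dusp6. Without SI2 the log2 fold change of Dusp6 was 2.58.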

How the results depend on the processing

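Dusp5, Dusp6, Dusp7 and Dusp16 were called by edgeR, DESeq2 and limma-voom, by both with the donor mouse as a replicate block (4072 genes called with edgeR and the block, against 4116) and without a filter. The block changed no call of a phosphatase gene. With at least 10 counts in every library Dusp7 was not tested. Leaving out 1 library at a time gave 3167 to 4480 genes and 4 to 5 phosphatase genes, the fifth being Dusp8 without SI2 or COL4. Among libraries of high mitochondrial share alone, 2264 genes and 2 phosphatase genes (Dusp1 and Dusp6) were called, with Dusp5 at 1.42 (adjusted p = 0.138 by edgeR), Dusp7 at -2.30 (0.165) and Dusp16 at 1.31 (0.087) no longer past the threshold in this fit of 4 libraries. With the mitochondrial level as a covariate Dusp8 was called (0.93, adjusted p = 0.0372). Signs turned for Dusp1 among libraries of low mitochondrial share (0.26 in the fit and 0.16 as a difference of means), for Dusp4 with library-size scaling (-0.11), limma-voom (-0.28), as a difference of means among libraries of high share (-0.42) and without SI3 (-0.14), and for Dusp10 without COL3 (0.067) and as a difference of means among libraries of high share (0.34). With each library left out, Dusp4 ran from -0.14 to 1.08 and Dusp10 from -0.89 to 0.067. The cause was not tested. With each library left out, the difference in share between SI and COL ran from 12.2 to 24.1 percentage points for the cytoplasmic, -14.6 to -8.34 for the JNK/p38 and -11.9 to -3.81 for the nuclear class, with COL2 giving the values nearest 0. Without the most abundant gene of each class (Dusp5, Dusp6 and Dusp16) the sign turned for the cytoplasmic (-20.4) and the JNK/p38 class (29.9). It did not turn for the nuclear class (-9.46). Dividing by the longest transcript or not dividing by length kept every direction. Dusp2, Dusp4 and Dusp9 had at most 40 counts in any library, and how far counting error and the spread between mice each limit the values was not separated.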
